A study of Mus musculus with 9 samples.

Results

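The iron handling genes described here are Slc40a1, Tfrc, Fth1, Slc11a2, Hmox1, Aco1 and Ireb2, 7 of the 12393 genes named on the arrays; they cover iron export, uptake, storage and sensing. Every probe set whose platform annotation gave exactly 1 of these symbols was taken, which gave 17 of the 22690 probe sets: 6 for Tfrc, 3 for Slc11a2, 2 each for Slc40a1, Fth1 and Aco1, and 1 each for Hmox1 and Ireb2. The set was chosen by measured values in part: the differences between lines in these 9 arrays were known when it was assembled, among them that of Slc40a1. The differences of the 7 genes between lines are therefore given as a description, with an error and no p-value. Calls and counts among them are shown beside the share of all probe sets and are not read as support.

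RNA was profiled on Affymetrix mouse arrays in 3 lines with 3 arrays each. SV5-NN4 is a stable clone of NIH 3T3 cells with SV40 large T antigen and wild-type N-ras. SV5 is a stable clone transformed by SV40 large T antigen, and NIH 3T3, a mouse fibroblast line labelled wild type, is the parent of both. All 3 lines grew in medium with 10% calf serum. Each transformed line is 1 clone, so that an added gene and a clonal difference cannot be told apart. The labels name no promoter for either added gene. Nothing in the labels says that arrays came from separate cultures, so their spread may be technical. The values are bulk intensities, in which fewer cells with a transcript and less of it per cell cannot be told apart.

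Cells take up iron bound to transferrin through the transferrin receptor, encoded by Tfrc, and the transporter encoded by Slc11a2, DMT1, moves it from endosomes into the cytosol. Ferritin, whose heavy chain is encoded by Fth1, stores it, and ferroportin, the product of Slc40a1, is the known exporter of iron from mammalian cells. Heme oxygenase, encoded by Hmox1, frees iron from heme. The iron regulatory proteins encoded by Aco1 and Ireb2 bind hairpins in messenger RNA when iron is scarce, which blocks translation of ferritin and ferroportin and stabilises the Tfrc transcript. Arrays measure the transcripts, so the translational part of this control is outside these data.

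Values differed by replicate number as well as by line. Arrays with equal numbers deviated together, and differences were taken within each such pair, in a limma fit over all probe sets with the replicate number as a block. A probe set was called at a Benjamini-Hochberg adjusted p under 0.05. Differences are on the scale of log2(intensity + 1), which understates those of dim probe sets, and SE and 95% intervals come from that fit (n = 3 arrays per line). Upper quartiles ran from 165.2 to 239.7 between arrays and were lowest in NIH 3T3 at each replicate number. NIH 3T3 had 173.8, 165.2 and 218.7 for replicates 1, 2 and 3. SV5-NN4 had 184.6, 181.5 and 239.7, and SV5 had 184.8, 187.3 and 235.0. The 9 control probe sets for bacterial transcripts read 8.04 to 17.96, a range taken as the floor. All 7 fibroblast markers lay above that floor on every array, with summed intensities of 21280 to 34820 in SV5-NN4, 32580 to 52120 in SV5 and 21760 to 45280 in NIH 3T3.

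**Figure D1:**
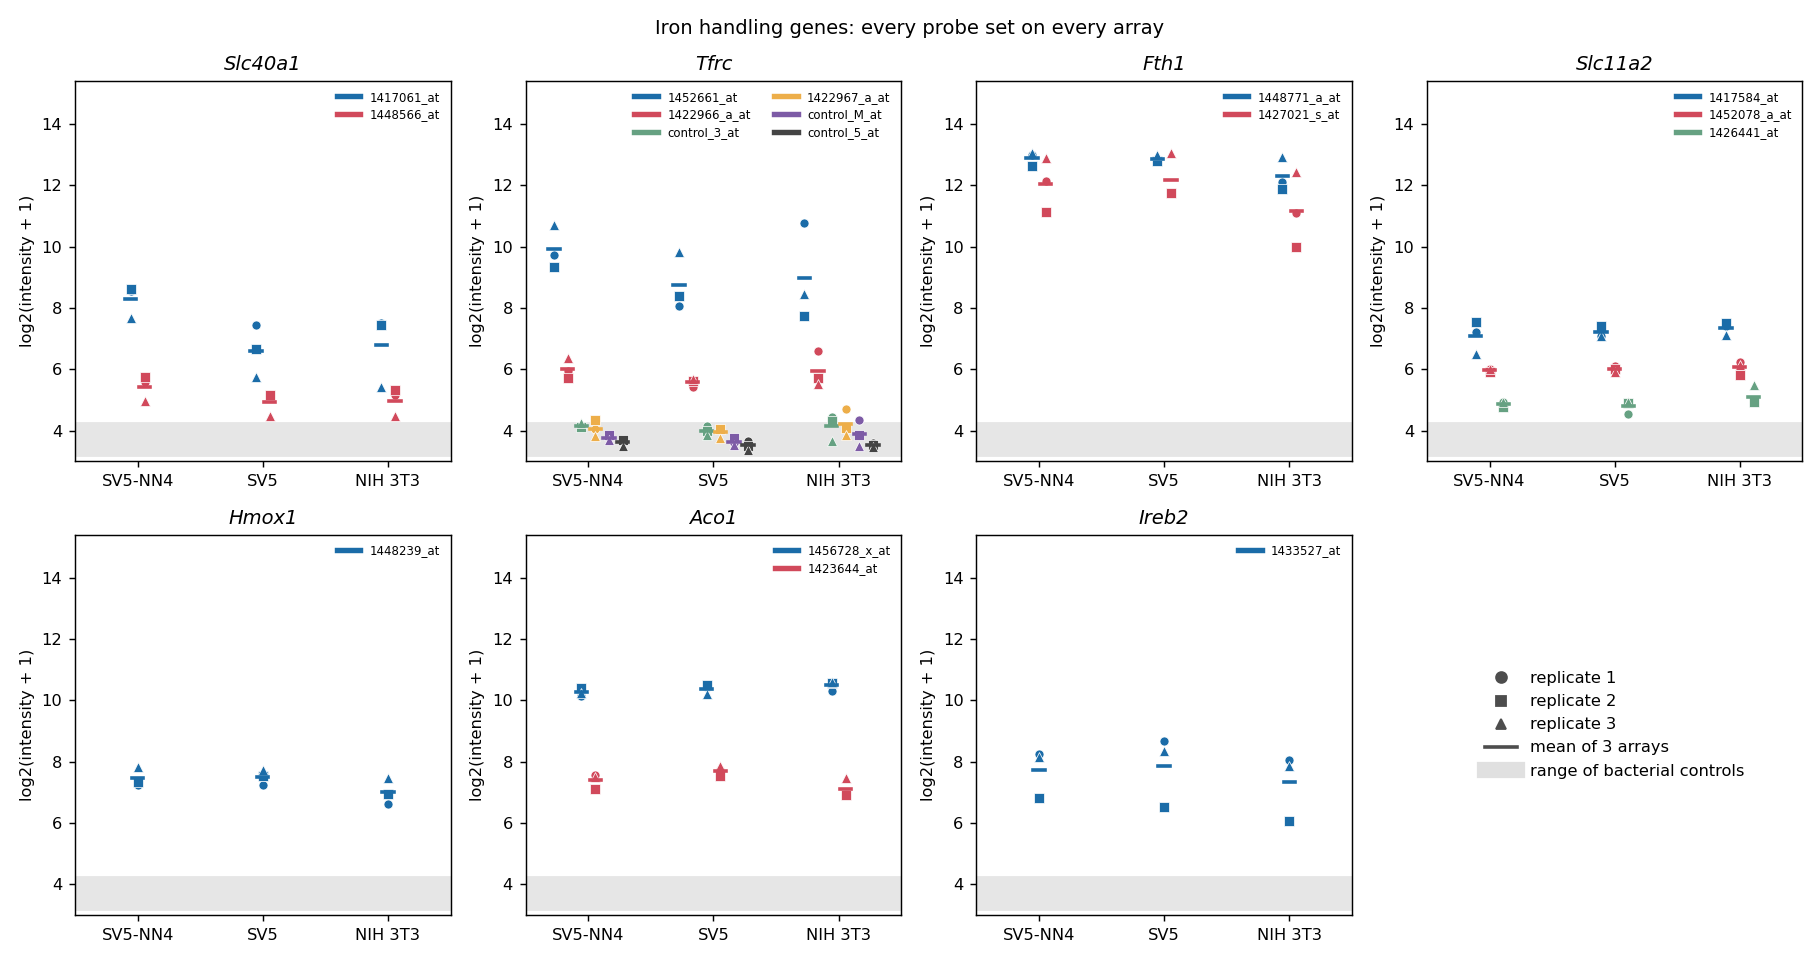
Intensities on the log2(intensity + 1) scale (y axis) of all 17 probe sets in SV5-NN4, SV5 and NIH 3T3 (x axis), 1 panel per gene, 1 colour per probe set, 1 marker shape per replicate number, with a bar at the mean of 3 arrays; probe sets named control are the Affymetrix 5', middle and 3' control probe sets for Tfrc, and the grey band is the range of the bacterial controls. The brighter Slc40a1 probe set reads 202.8 to 396.0 in SV5-NN4, above every array of the other lines, and 4 of 6 Tfrc probe sets lie in or next to the grey band.

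Ferroportin was higher in SV5-NN4 than in either other line. Its brighter probe set, 1417061_at, read 376.4, 396.0 and 202.8 on SV5-NN4 replicates 1, 2 and 3, against 171.5, 99.94 and 52.17 in SV5 and 181.4, 171.5 and 41.57 in NIH 3T3. All SV5-NN4 arrays lay above all arrays of the other lines, and replicate 3 was the lowest array of every line. On the log2 scale the levels were 8.29 ± 0.54 in SV5-NN4, 6.61 ± 0.85 in SV5 and 6.78 ± 1.19 in NIH 3T3 (mean ± SD, n = 3). The order was thus SV5-NN4, NIH 3T3, SV5, of which the last 2 did not differ beyond their spread.

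Within pairs the difference was more even than these SDs show. SV5-NN4 exceeded SV5 by 2.19-, 3.93- and 3.83-fold in the pairs of replicates 1, 2 and 3, a mean log2 difference of 1.68 (SE 0.27, 95% interval 1.06 to 2.31), or 3.21-fold. SV5-NN4 exceeded NIH 3T3 by 2.07-, 2.30- and 4.79-fold, a mean of 1.50 (SE 0.27, 0.88 to 2.13), or 2.84-fold. SV5 against NIH 3T3 gave -0.18 (SE 0.27, -0.80 to 0.45), with pairs of -0.08, -0.77 and 0.32. Both of the first differences use the same SV5-NN4 arrays and are not independent of each other.

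The other Slc40a1 probe set, 1448566_at, gave a smaller difference in the same direction. It read 47.03, 52.28 and 30.05 in SV5-NN4, against 34.65, 34.65 and 21.06 in SV5 and 34.65, 38.88 and 20.99 in NIH 3T3, so that the lines overlapped because replicate 3 was low in each. Within pairs SV5-NN4 was higher in 3 of 3, by 0.43, 0.58 and 0.49 on the log2 scale over SV5 (mean 0.50, SE 0.11) and by 0.43, 0.42 and 0.50 over NIH 3T3 (mean 0.45, SE 0.11). SV5 and NIH 3T3 differed by -0.05 (SE 0.11). Both probe sets thus had the same order of lines, with differences of unequal size. Replicate number accounted for 42.2% of the log2 variance of the brighter probe set and 69.6% of that of the dimmer, and line for 51.4% and 29.7%.

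Ferroportin gave the calls among these genes. Of the 17 probe sets, 1 was called in SV5-NN4 against SV5, where 0.864% of all probe sets were called, and 1 in SV5-NN4 against NIH 3T3, where 1.65% were, the brighter Slc40a1 probe set each time. In SV5 against NIH 3T3 limma called 0 of the 17, where 0.0617% of all were called, and 5 had an unadjusted p under 0.05, against 14.2% of all. At that unadjusted p the count was 2 in SV5-NN4 against SV5, against 13.0% of all, and 6 in SV5-NN4 against NIH 3T3, against 17.1%. Non-overlap upward in SV5-NN4 against NIH 3T3 was found for this probe set alone, 1 of 17, and for 3.34% of all. Nothing is read from these counts or calls, since the set was assembled with such results known. The Slc40a1 call against SV5 was lost without the replicate block (SE 0.63), with a pseudocount of 16 (difference 1.53), and on leaving out NIH 3T3 replicate 2 or an array of either transformed line; with single arrays left out the difference was 1.43 to 1.93. That against NIH 3T3 was held only over the probe sets at or above the median level, with centred arrays and without NIH 3T3 replicate 1, among 15 alternatives, with differences of 1.19 to 1.76.

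Signs of RNA quality and of other cells were set beside this difference. The ratio of 3' to 5' control probe sets, which rises as RNA degrades, was for Actb 4.08, 4.63 and 3.66 (log2) in SV5-NN4, 3.74, 4.33 and 2.42 in SV5 and 4.26, 4.43 and 5.07 in NIH 3T3, so SV5-NN4 was above SV5 in every pair and below NIH 3T3 in replicates 1 and 3. For Gapdh it was 2.67, 3.53 and 3.05 in SV5-NN4, 2.45, 3.03 and 2.36 in SV5 and 2.65, 2.99 and 5.22 in NIH 3T3. Its part in the Slc40a1 difference was not tested. Macrophages, which recycle iron from red cells, are rich in ferroportin. The 6 macrophage markers summed to 341.4 to 379.2 in SV5-NN4, 304.6 to 333.0 in SV5 and 276.9 to 411.7 in NIH 3T3. Ptprc, which marks all white cells, read 11.56 to 13.07 in SV5-NN4, 13.07 to 18.62 in SV5 and 12.06 to 14.46 in NIH 3T3 and lay within the bacterial control range on 8 of 9 arrays. Csf1r, a growth factor receptor of macrophages, read 103.8 to 125.3 in SV5-NN4, 61.07 to 95.49 in SV5 and 72.14 to 124.1 in NIH 3T3, so that SV5-NN4 lay above SV5 without overlap (log2 difference 0.48). Cd14, an endotoxin receptor, gave 0.39 for SV5-NN4 against SV5 and 0.47 against NIH 3T3. The other markers gave 0.01 and -0.27 (Adgre1), -0.05 and -0.09 (Cd68), and -0.21 and -0.25 (Lyz2) in the same comparisons. None of the 6 was called in any comparison, and the part of these markers in the Slc40a1 difference was not tested. Markers of erythroid cells, hepatocytes, epithelium and endothelium were also measured, with 4 genes each. Summed intensities in SV5-NN4, SV5 and NIH 3T3 were 145.2 to 236.4, 146.6 to 204.3 and 172.4 to 276.4 for the erythroid list and 168.2 to 269.3, 148.4 to 248.0 and 195.2 to 345.0 for the hepatocyte list. They were 73.1 to 108.6, 77.4 to 109.1 and 93.2 to 116.9 for epithelium and 70.6 to 93.0, 75.5 to 106.4 and 82.0 to 140.9 for endothelium. Of the defining genes Epcam, Cdh1, Krt18, Pecam1, Cdh5, Tek and Hba-a1 fell within the control range on at least 1 array.

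**Figure D2:**
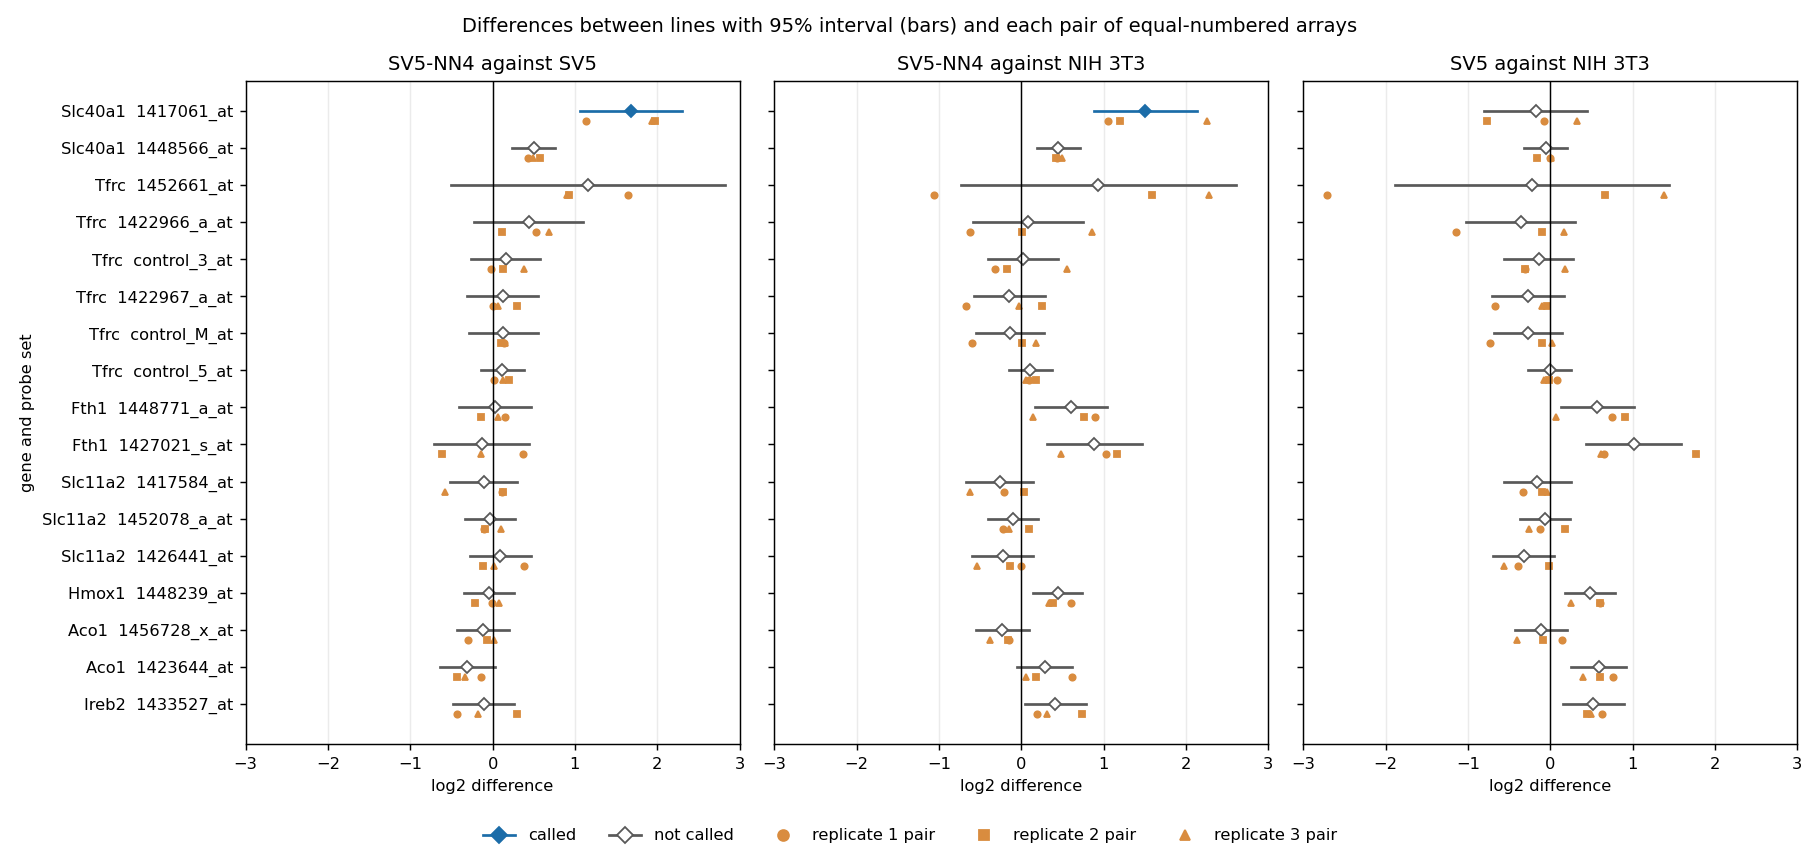
Log2 differences (x axis) of the 17 probe sets (rows) in the 3 comparisons (panels), with the mean as a diamond, its 95% interval as a bar and the 3 pairs of equal-numbered arrays as small markers; filled diamonds were called. Only the brighter Slc40a1 probe set is filled, at 1.68 over SV5 and 1.50 over NIH 3T3, and the widest intervals are those of Tfrc 1452661_at.

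Of the uptake genes, Tfrc varied most between arrays. Its brightest probe set, 1452661_at, read 839.8, 638.9 and 1680 in SV5-NN4, against 268.0, 334.9 and 901.3 in SV5 and 1753, 211.4 and 346.7 in NIH 3T3. NIH 3T3 replicate 1 was the highest of the 9 arrays, while the other NIH 3T3 arrays lay below all of SV5-NN4. SV5-NN4 was above SV5 in 3 of 3 pairs, by 1.64, 0.93 and 0.90 (mean 1.16, SE 0.71, 95% interval -0.51 to 2.82). That error also takes in the spread of the NIH 3T3 arrays. With only the 2 lines compared the SE was 0.17 (0.74 to 1.57), and the probe set was called, as were 1504 of all. Without NIH 3T3 replicate 1 the SE was 0.21 (0.66 to 1.65), and it was called, as were 950 of all. Against NIH 3T3 the pairs gave -1.06, 1.59 and 2.27 for SV5-NN4 (mean 0.93, SE 0.71) and -2.71, 0.66 and 1.38 for SV5 (mean -0.22, SE 0.71). Several arrays moved these values. Without SV5 replicate 1 the fit gave 0.42 (SE 0.69) for SV5-NN4 against SV5, although the pairs that remain are 0.93 and 0.90. That fit still weighs SV5-NN4 replicate 1 against NIH 3T3 replicate 1, so the lower value does not come from the remaining pairs. For SV5-NN4 against NIH 3T3 it was 2.05 (SE 0.24) without NIH 3T3 replicate 1, 0.55 (SE 0.87) without NIH 3T3 replicate 2 and 0.20 (SE 0.68) without NIH 3T3 replicate 3. For SV5 against NIH 3T3 it took both signs, at 0.90 and 0.52 without replicate 1 of NIH 3T3 or of SV5 and at -0.96 to -0.50 without replicate 2 or 3 of either line.

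The other Tfrc probe sets gave less. The probe set 1422966_a_at read 61.17, 51.38 and 81.49 in SV5-NN4, against 42.21, 47.55 and 50.34 in SV5 and 94.61, 51.17 and 44.57 in NIH 3T3. SV5-NN4 lay above SV5 without overlap (0.44, SE 0.28), and NIH 3T3 replicate 1 was again the highest array. Non-overlap upward was found for 2 of the 17 probe sets in this comparison, this one and Slc40a1, and for 4.21% of all. The probe set 1422967_a_at read 12.5 to 25.2 and the 3' control probe set 11.8 to 20.8, and each lay within the bacterial control range on 7 of 9 arrays. The middle and 5' control probe sets were within it on 8 and 9 arrays. Differences at these 4 probe sets, -0.27 to 0.16, say little about the transcript.

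Slc11a2, the DMT1 gene, showed no shift beyond the spread. At 1417584_at it read 146.7, 186.9 and 90.0 in SV5-NN4, against 134.9, 170.6 and 135.0 in SV5 and 169.4, 182.6 and 139.0 in NIH 3T3. The differences were -0.11 for SV5-NN4 against SV5, -0.27 for SV5-NN4 against NIH 3T3 and -0.16 for SV5 against NIH 3T3 (SE 0.17 each). The other 2 probe sets differed by -0.03 and 0.09, by -0.10 and -0.23, and by -0.07 and -0.32 in the same comparisons. All lines overlapped at all 3 probe sets. In SV5 against NIH 3T3 the pairs were below 0 each time at 1417584_at (-0.33, -0.10 and -0.04). They were so too at 1426441_at (-0.39, -0.02 and -0.56, SE 0.16, 95% interval -0.69 to 0.05).

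Fth1, the ferritin heavy chain, was higher in both transformed lines than in NIH 3T3 while the transformed lines differed by less than its error. At 1448771_a_at it read 8144, 6403 and 8498 in SV5-NN4, 7327, 7068 and 8117 in SV5 and 4368, 3774 and 7728 in NIH 3T3. NIH 3T3 replicate 3 reached the level of the transformed lines, and the other 2 NIH 3T3 arrays were the lowest of the 9. The difference from NIH 3T3 was 0.60 in SV5-NN4 (SE 0.19, pairs 0.90, 0.76 and 0.14) and 0.57 in SV5 (SE 0.19, pairs 0.75, 0.91 and 0.07). SV5-NN4 against SV5 gave 0.03 (SE 0.19, 95% interval -0.41 to 0.46). At 1427021_s_at the values were 4476, 2245 and 7632 in SV5-NN4, 3467, 3437 and 8431 in SV5 and 2204, 1004 and 5484 in NIH 3T3. Both transformed lines were above NIH 3T3 in 3 of 3 pairs there too, by 0.89 and 1.02 (SE 0.25 each). The suffix of that probe set marks probes shared by more than 1 transcript, so related sequences may add to it.

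Hmox1, which encodes the inducible heme oxygenase, was likewise lowest in NIH 3T3. It read 149.0, 159.2 and 223.1 in SV5-NN4, 149.1, 185.4 and 210.7 in SV5 and 98.1, 121.7 and 176.5 in NIH 3T3. NIH 3T3 was the lowest line in each pair, and the transformed lines overlapped. The difference from NIH 3T3 was 0.44 in SV5-NN4 (SE 0.13, pairs 0.60, 0.39 and 0.34) and 0.49 in SV5 (SE 0.13, pairs 0.60, 0.60 and 0.25). SV5-NN4 against SV5 gave -0.05 (SE 0.13, 95% interval -0.35 to 0.26).

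Ireb2, which encodes iron regulatory protein 2, was set mainly by replicate number, which held 91.1% of its log2 variance against 6.69% for line. It read 300.9, 111.0 and 284.7 in SV5-NN4, 407.4, 90.5 and 322.9 in SV5 and 264.0, 66.3 and 228.4 in NIH 3T3, with replicate 2 the lowest array of each line. Within pairs NIH 3T3 was the lowest each time. The difference from NIH 3T3 was 0.41 in SV5-NN4 (SE 0.16) and 0.52 in SV5 (SE 0.16, pairs 0.62, 0.44 and 0.50), and SV5-NN4 against SV5 gave -0.11 (SE 0.16).

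Aco1, which encodes the cytosolic aconitase that becomes iron regulatory protein 1 when it loses its iron-sulfur cluster, had probe sets that disagreed. At 1423644_at it read 189.7, 135.4 and 181.3 in SV5-NN4, 210.0, 182.8 and 229.6 in SV5 and 123.8, 119.5 and 174.3 in NIH 3T3. SV5 lay above NIH 3T3 without overlap, by 0.59 (SE 0.14, pairs 0.76, 0.61 and 0.40), the 1 of the 17 probe sets that did so in this comparison, where 2.16% of all probe sets did so. SV5-NN4 was 0.28 above NIH 3T3 (SE 0.14) and 0.30 below SV5 (a difference of -0.30, SE 0.14), lower in 3 of 3 pairs. At 1456728_x_at, whose suffix marks probes that may match other transcripts, it read 1135, 1360 and 1196 in SV5-NN4, 1393, 1430 and 1182 in SV5 and 1260, 1517 and 1559 in NIH 3T3. There SV5-NN4 gave -0.23 and SV5 gave -0.11 against NIH 3T3 (SE 0.14 each), the opposite sign.

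Fth1, Hmox1, Ireb2 and the first Aco1 probe set thus shared a direction in which the transformed lines were above NIH 3T3 in every pair, while Slc40a1 was higher in SV5-NN4 than in both other lines. The upper quartile was also lowest in NIH 3T3 at each replicate number, and its part in these differences was not tested. After quantile normalization SV5-NN4 against NIH 3T3 gave 0.53 and 0.83 for Fth1 and 0.35 for Hmox1. Ireb2 then gave 0.39 and Aco1 1423644_at gave 0.18. Without that step the same differences were 0.60 and 0.89, 0.44, 0.41 and 0.28. In SV5 against NIH 3T3, 5 of the 17 probe sets were higher in 3 of 3 pairs, where 12.9% of all probe sets were, and 3 were lower, where 17.4% were. Those lower were Slc11a2 1417584_at and 1426441_at and Tfrc 1422967_a_at, the last of which lay near the floor. In SV5-NN4 against NIH 3T3, 8 were higher in 3 of 3 pairs, where 16.9% of all were, and 1 was lower, where 19.0% were. In SV5-NN4 against SV5, 6 were higher, where 20.9% of all were, 1 was lower, where 19.6% were, and the 6 were the 2 of Slc40a1 and 4 of Tfrc, of which the 5' and middle control probe sets lay at the floor. The median difference over the 17 probe sets was 0.09 in SV5-NN4 against SV5, 0.11 in SV5-NN4 against NIH 3T3 and -0.11 in SV5 against NIH 3T3. Over all probe sets it was 0.01, -0.03 and -0.04. Probe sets of 1 gene share its transcript and are not independent, and the comparisons share arrays.

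Because Fth1, Ireb2 and Aco1 were higher in both transformed lines at 1 probe set or more, the 250 bases before their start sites are shown. Aco1 was so only at 1423644_at, where SV5-NN4 was 0.28 above NIH 3T3 (95% interval -0.05 to 0.61). Its brighter probe set gave -0.23 in SV5-NN4 and -0.11 in SV5 against NIH 3T3. The sequences are from RefSeq (assembly GRCm38.p6, plus strand, 5' to 3'), in which 4 of the 7 genes had an entry: Fth1, Ireb2, Aco1 and Tfrc. Capitals mark the GC box GGGCGG, a motif bound by Sp1-type factors, on either strand, and in Aco1 also the core of the antioxidant response element TGANNNNGC, through which the redox-sensitive factor Nrf2 acts.
Fth1 chr19:9982396-9982645: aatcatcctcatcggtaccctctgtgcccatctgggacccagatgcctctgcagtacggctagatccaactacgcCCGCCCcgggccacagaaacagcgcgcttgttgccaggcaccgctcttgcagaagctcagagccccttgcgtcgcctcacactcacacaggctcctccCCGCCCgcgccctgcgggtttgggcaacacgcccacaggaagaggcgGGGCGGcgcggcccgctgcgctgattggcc
Ireb2 chr9:54863505-54863754: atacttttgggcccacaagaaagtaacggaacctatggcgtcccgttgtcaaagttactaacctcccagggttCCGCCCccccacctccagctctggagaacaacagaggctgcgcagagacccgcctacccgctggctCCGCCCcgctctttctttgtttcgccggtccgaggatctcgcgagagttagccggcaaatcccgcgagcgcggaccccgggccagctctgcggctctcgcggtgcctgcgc
Aco1 chr4:40143015-40143264: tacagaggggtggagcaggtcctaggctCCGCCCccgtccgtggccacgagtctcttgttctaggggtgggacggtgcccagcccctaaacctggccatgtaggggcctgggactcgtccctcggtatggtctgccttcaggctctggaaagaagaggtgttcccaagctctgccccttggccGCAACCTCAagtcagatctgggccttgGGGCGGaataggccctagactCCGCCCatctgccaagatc
Fth1 has 2 windows in the table; the one shown was picked because it holds GC boxes, and the other, at chr19:9980350-9980599, has 0. The GC box had 3 matches in Fth1, 2 in Ireb2 and 3 in Aco1, and it occurs in 32.7% of all 32851 windows of this length. Tfrc, which was not higher in both transformed lines, also had 1 match, from -35 to -30 in the window chr16:32608872-32609121. Its other window had 0. The motif is thus not particular to the 3 genes shown. The antioxidant core had 1 match, in Aco1 from -67 to -59 relative to the start site on the minus strand, and occurs in 35.2% of windows. The E-box CACGTG, which Myc family factors bind, had no match in the 3 windows shown and occurs in 6.02% of all. No matches of different motifs overlapped in them. Such matches describe the letters only.

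The other genes of iron handling came from 9 lists written by function, of which 78 of 96 genes were measured at their brightest probe set. In SV5-NN4 against SV5, 2 of the 78 were called, both higher, where 1.05% of all genes were called, and 24 had an unadjusted p under 0.05, where 14.6% of all did. In SV5-NN4 against NIH 3T3, 7 were called, all higher, where 1.96% of all genes were, and 26 had an unadjusted p under 0.05, where 19.4% of all did. In SV5 against NIH 3T3 limma called 0, where 0.0484% of all genes were called, and 13 had an unadjusted p under 0.05, 10 higher and 3 lower, where 15.0% of all genes did. The medians of the 78 were 0.07, 0.11 and 0.04 in these comparisons, against 0.01, -0.03 and -0.03 over all genes.

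Among the uptake genes, Slc25a37 rose in SV5-NN4. It encodes mitoferrin 1, which carries iron into mitochondria. It read 345.2, 413.7 and 918.5 in SV5-NN4, against 155.3, 163.7 and 313.4 in SV5 and 161.1, 151.7 and 250.3 in NIH 3T3, with no overlap. It rose by 1.34 over SV5 (SE 0.16, limma adjusted p = 0.021) and by 1.47 over NIH 3T3 (SE 0.16, adjusted p = 0.014), in 3 of 3 pairs each time. The call against SV5 was lost with no block and on dropping an array of either transformed line (adjusted p 0.0064 to 0.78 over 15 alternatives). That against NIH 3T3 was lost in 5 of 15: without the block, with only these lines, and without NIH 3T3 replicate 2 or SV5-NN4 replicate 2 or 3 (adjusted p 0.0061 to 0.65). The other 14 measured uptake genes were not called, and the median of the list was 0.01, -0.15 and -0.0034 in the comparisons of SV5-NN4 with SV5, SV5-NN4 with NIH 3T3 and SV5 with NIH 3T3. Among those not called, Scara5 gave -1.95 in SV5-NN4 against SV5 and -1.32 in SV5-NN4 against NIH 3T3. Steap1 gave 0.99 and 1.07 in the same comparisons.

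No other gene of iron export and oxidation was called. Of that list 4 genes were measured, among them Cp, the plasma ferroxidase ceruloplasmin that works with ferroportin, at -1.02 in SV5-NN4 against SV5 and -1.47 in SV5-NN4 against NIH 3T3. Limma also called 0 of 4 storage and chaperone genes, 0 of 6 sensing genes, 0 of 8 heme synthesis genes and 0 of 4 metal response genes in all 3 comparisons. At an unadjusted p under 0.05 these 5 lists gave 7, 6 and 2 of 26 genes in SV5-NN4 against SV5, SV5-NN4 against NIH 3T3 and SV5 against NIH 3T3, where 14.6%, 19.4% and 15.0% of all genes did.

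Heme and iron-sulfur genes were called in SV5-NN4 against NIH 3T3 only, and the difference of that from the other comparisons was not tested. Slc48a1, a heme transporter of the endosome and lysosome, read 585.8, 489.4 and 545.5 in SV5-NN4, against 266.9, 172.5 and 285.2 in NIH 3T3. It rose by 1.19 (SE 0.16, limma adjusted p = 0.024; 0.02 to 0.37 over 15 alternatives), and its other probe set gave 0.83. Of 15 iron-sulfur cluster genes, 13 were above 0 in this comparison, where 44.9% of all genes were, with a median of 0.49, against -0.03 over all genes. In SV5 against NIH 3T3, 12 were above 0 (median 0.25), where 44.8% of all genes were. In SV5-NN4 against SV5, 10 were above 0 (median 0.20), where 52.2% of all genes were. Of the 15, 3 were called in SV5-NN4 against NIH 3T3, all higher, where 1.96% of all genes were called in either direction. They were the mitochondrial chaperone Hspa9 at 0.74 (limma adjusted p = 0.044), the assembly protein Isca2 at 0.74 (adjusted p = 0.049) and Ciapin1, of the cytosolic pathway, at 0.71 (adjusted p = 0.039), each in 3 of 3 pairs. These calls were held in 8, 5, 2 and 4 of 15 alternatives for Slc48a1, Hspa9, Isca2 and Ciapin1. All of them were lost without the block, with only these lines, and without NIH 3T3 replicate 2, SV5 replicate 2 or any 1 SV5-NN4 array. Those of Isca2 and Ciapin1 were also lost after quantile normalization. The shares over all genes were not matched for level, and NIH 3T3 had the lowest upper quartile at each replicate number. The other Hspa9 probe sets ranged from -0.31 to 0.77, and the other Ciapin1 probe set gave 0.87.

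Genes of the antioxidant response, a programme to which Hmox1, Fth1 and Slc40a1 are also known to belong, mostly had differences above 0 in SV5-NN4, with 1 of 11 called against SV5 and 2 against NIH 3T3. Hmox1 and Fth1 did not share the Slc40a1 difference from SV5. In SV5-NN4 against SV5 Hmox1 gave -0.05 and the Fth1 probe sets 0.03 and -0.13. Against NIH 3T3 they gave 0.44, 0.60 and 0.89. The median of the 11 listed genes was 0.67 in SV5-NN4 against SV5, with 10 of 11 above 0, 0.61 in SV5-NN4 against NIH 3T3, with 9 above 0, and -0.04 in SV5 against NIH 3T3, with 4 above 0. Over all genes 52.2%, 44.9% and 44.8% were above 0 in these comparisons. The list mixes targets with regulators, so a count above 0 is not a count of raised targets. Its repressor genes Keap1 and Bach1 gave 0.33 and 0.08 in SV5-NN4 against SV5 and 0.14 and -0.56 in SV5-NN4 against NIH 3T3. Nfe2l2, which encodes Nrf2, gave -0.145 and 0.61 in the same comparisons. Srxn1, the sulfiredoxin gene, read 241.3, 315.6 and 290.1 in SV5-NN4, against 105.8, 123.1 and 123.9 in SV5 and 165.8, 152.6 and 172.2 in NIH 3T3. It rose by 1.25 over SV5 (SE 0.13, limma adjusted p = 0.014; 0.006 to 0.14 over 15 alternatives) and by 0.78 over NIH 3T3 (SE 0.13, adjusted p = 0.045; 0.018 to 0.39), in 3 of 3 pairs. Its other 3 probe sets gave 0.39 to 1.001 and 0.23 to 1.29. Gclc, a subunit of the enzyme that starts glutathione synthesis, read 805.9, 500.4 and 381.2 in SV5-NN4, against 248.0, 205.1 and 108.9 in NIH 3T3, and rose by 1.59 (SE 0.26, adjusted p = 0.042; 0.024 to 0.57 over 15 alternatives). The Srxn1 call over SV5 was lost with no block and on dropping an array of either transformed line, that over NIH 3T3 was held in 4 of 15 alternatives, and that of Gclc in 5. The quinone reductase gene Nqo1 gave 1.59 against SV5 and 1.56 against NIH 3T3, neither called.

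**Figure D3:**
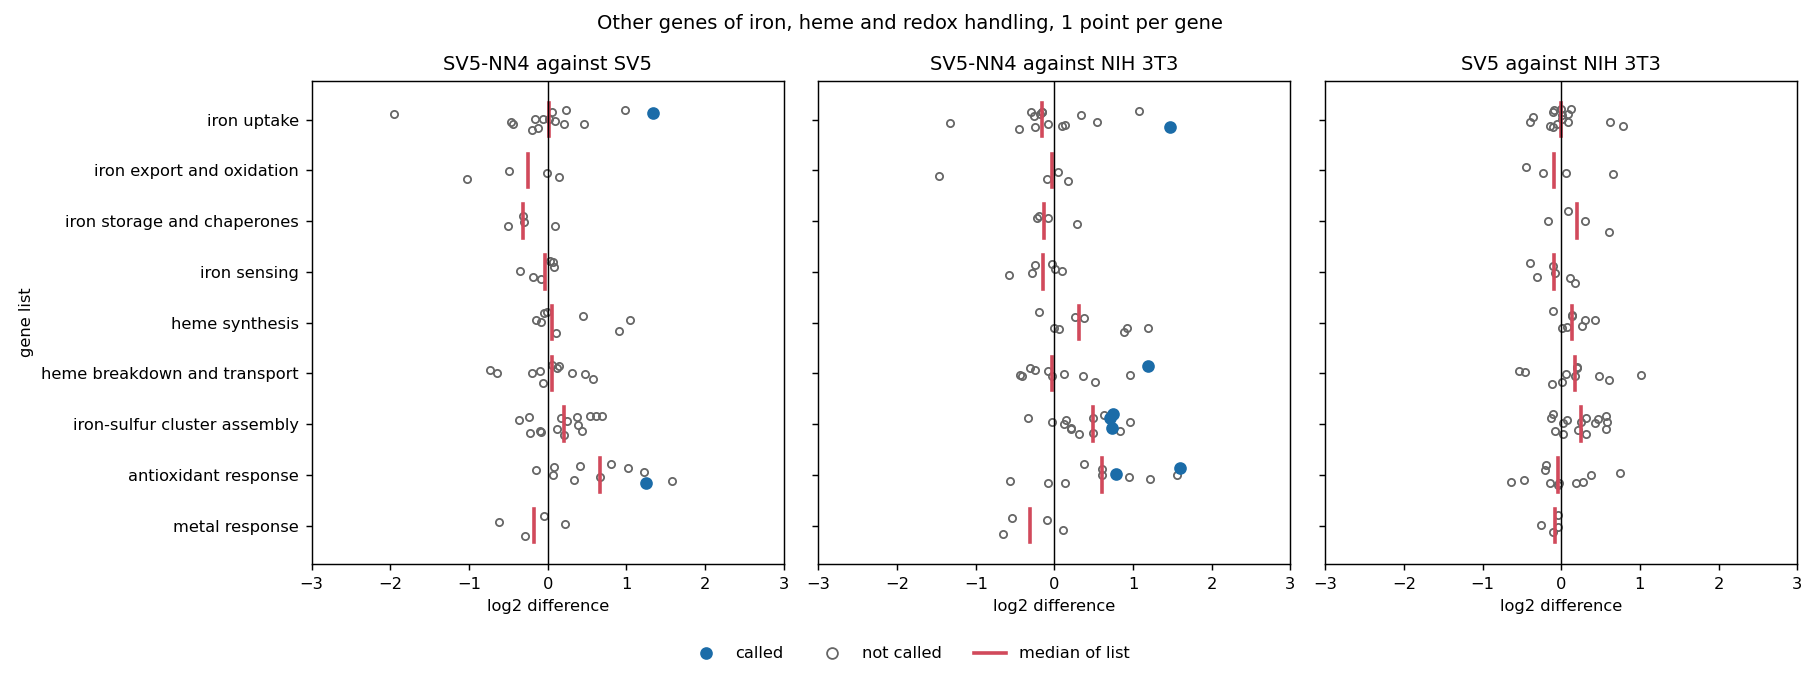
Log2 differences (x axis) of 78 further genes at their brightest probe set, by list (rows) and comparison (panels), 1 point per gene, filled where called, with a red bar at each list's median. The antioxidant response list has medians of 0.67 and 0.61 in the panels of SV5-NN4 and -0.04 in SV5 against NIH 3T3.

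The genes whose pattern was most like that of Slc40a1 were found among 7141 genes with a mean at or above the median probe set level of 5.93. Likeness was Pearson's r over the 9 arrays after the mean of each replicate number was taken away, which leaves the differences between lines, and it is given as a description. The 5 highest were Nup93, a nuclear pore protein, and Nxt1, a cofactor of messenger RNA export (r = 0.989 each), then Cptp, a lipid transfer protein (0.984), Zc3h18, an RNA-binding zinc finger protein (0.980), and Txnrd1, a thioredoxin reductase on the antioxidant list (0.979). With the replicate means kept, the same 5 gave r of -0.00716, 0.21, 0.571, 0.0443 and 0.322. All points share the same 9 arrays. The second Slc40a1 probe set gave 0.975. Among the other iron genes, at their brightest probe sets, r was 0.58 for Tfrc, 0.231 for Ireb2, 0.228 for Hmox1, 0.207 for Fth1, -0.558 for Slc11a2 and -0.604 for Aco1.

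**Figure D4:**
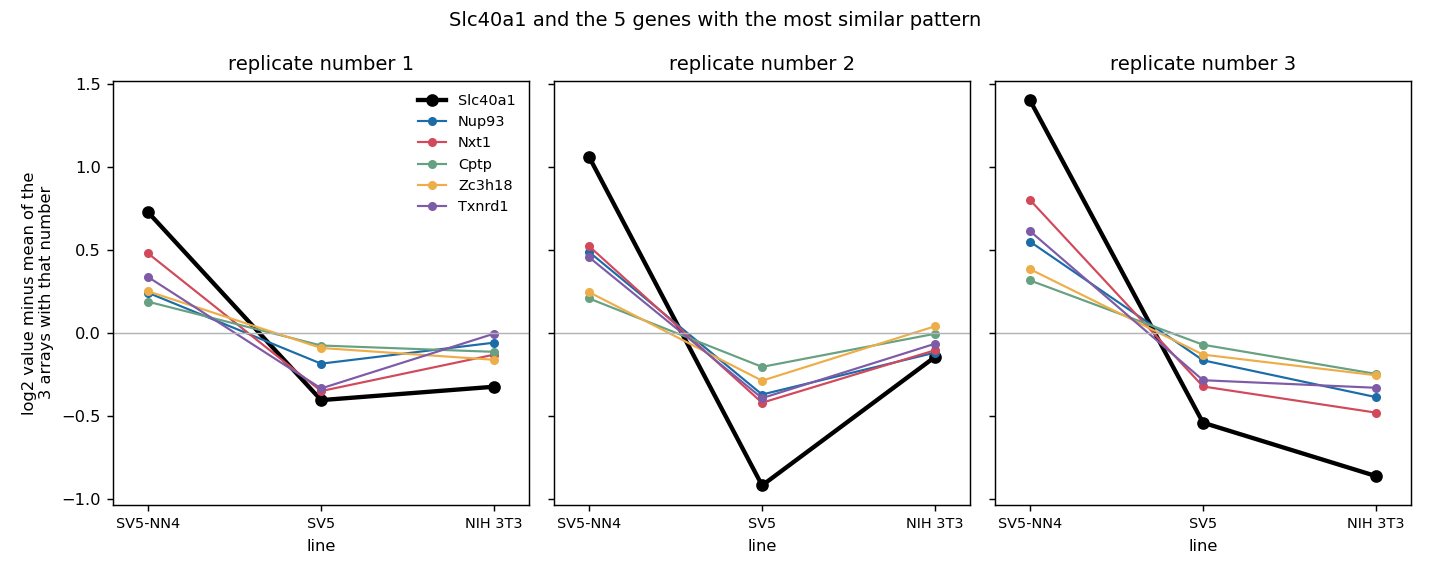
Log2 values minus the mean of the 3 arrays with the same replicate number (y axis) in SV5-NN4, SV5 and NIH 3T3 (x axis), 1 panel per replicate number, for Slc40a1 (black) and the 5 genes with the highest r. In each panel every gene is highest in SV5-NN4, where Slc40a1 stands at 0.73, 1.06 and 1.40.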

How the data were processed

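The authors deposited 1 table of intensities on a linear scale, a value per probe set and array, for 9 arrays. RMA was used, per the submitters' processing notes, which here give neither a version nor settings. Trizol RNA was labelled by the Affymetrix one-cycle procedure, per the labels' protocols. Groups and replicate numbers came from sample titles.

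Here log2(intensity + 1) of all 22690 probe sets, control probe sets included, was fitted with limma 3.58.1 in R 4.3.3 (lmFit with a mean per line and the replicate number as a block, eBayes, Benjamini-Hochberg over all probe sets). The pairing comes from the data: after line means were taken away, all 9 equal-numbered pairs of arrays correlated at 0.261 to 0.845 across probe sets. The 18 pairs of unlike number from different lines correlated at -0.726 to 0.114. Taking line means away pushes these down where equal-numbered pairs correlate above 0, so the contrast is partly built in. The fit was run on data simulated from the block model itself, which checks the code but not whether the block suits these arrays. The platform annotation named the probe sets: 20393 carried 1 symbol, 691 several and 1606 none. Of the first, 20364 were found by gene ID in the RefSeq table of GRCm38.p6 and 0 changed. A gene outside the 7 stands at its brightest probe set by mean, controls aside. Further genes are named where called, at most 3 per list and comparison, with the 5 most like Slc40a1. Cp, Nqo1, Scara5 and Steap1 were named after their values were seen. The members, lists and tests were chosen with earlier results of these data known. Alternatives were no block, a pseudocount of 16, probe sets at or above the median level, median centring, quantile normalization, only the lines compared, and each array left out. Precision is limited by having 3 arrays a line.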

Additional observations from a re-analysis of the deposited data

How the results depend on the processing

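Leaving out the replicate block lowered the counts of calls. With no replicate block the pairing was ignored, and 19 probe sets were called in SV5-NN4 against SV5 (196 with the block), 18 in SV5-NN4 against NIH 3T3 (375) and 1 in SV5 against NIH 3T3 (14). Other iron genes then numbered 0 in the first comparison (2 with the block) and 0 in the second (7). With only the lines compared the probe set counts were 1504, 18 and 0, and other iron genes 13 and 0 in the first 2 comparisons. Quantile normalization left 3 other iron genes in SV5-NN4 against NIH 3T3. In SV5 against NIH 3T3, 0 probe sets were called with a pseudocount of 16, after median centring or after quantile normalization. With single arrays left out, counts were 14 to 950, 13 to 1239 and 0 to 49 probe sets in the 3 comparisons, and 0 to 7, 0 to 14 and 0 to 0 other iron genes; the highest were without NIH 3T3 replicate 1. The cause was not tested. Of the 51 differences of the 17 probe sets, 19 turned somewhere and were at most 0.359 in size; the 4 Slc40a1 differences of SV5-NN4 did not turn. With no block, only the lines compared, the filter on level or an array of the third line left out, a difference is the same by construction and only its error or adjustment can change, so the other settings alone bear on size and direction. With 3 arrays per line and 9 floor controls up to 17.96, changes in 4 of 6 Tfrc probe sets could not be seen.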

Other observations

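Ferritin light chain, which forms the ferritin shell with the product of Fth1, was measured only by probe sets annotated to several symbols (Ftl1 with a pseudogene and, for 1 of them, microRNA genes) and so belongs to no count above. The probe set 1422302_s_at read 2022, 1265 and 3326 in SV5-NN4, 1605, 1472 and 2916 in SV5 and 760.4, 440.3 and 1908 in NIH 3T3. It differed by 0.10 in SV5-NN4 against SV5, 1.24 in SV5-NN4 against NIH 3T3 (limma adjusted p = 0.045, 3 of 3 pairs) and 1.14 in SV5 against NIH 3T3 (adjusted p = 0.12), the same order of lines as at Fth1 1448771_a_at. That adjusted p lies near the threshold, and whether the call was held in the alternatives is not given here. The probe set 1418364_a_at read 1408, 1195 and 1934 in SV5-NN4, 1195, 935.8 and 1318 in SV5 and 336.3, 640.6 and 1370 in NIH 3T3, with differences of 0.38, 1.15 and 0.77, none called. The third, 1422301_at, differed by 0.13, 0.24 and 0.11. Which of the annotated transcripts these signals come from was not tested.

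Exactly equal deposited values recur between arrays. Of all probe sets, 6816 (30.0%) held the same value on 2 or more of the 9 arrays, 39.0% of those below the median level and 21.0% of those at or above it. Among the 17 probe sets of the iron genes this was so for 6. The dimmer Slc40a1 probe set stood at 34.65 on NIH 3T3 replicate 1 and SV5 replicates 1 and 2, and Slc11a2 1426441_at at 29.25 on 4 arrays of all 3 lines. The cause was not tested.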
